A study of Homo sapiens with 6 samples.

Results

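Condensins are ring-shaped ATPase complexes that compact chromatin into mitotic chromosomes. The 8 genes described here encode their subunits and were taken by symbol from the 23228 rows of the table of normalized counts. All 8 passed the filter on low values, which 13255 genes passed. Vertebrate cells carry condensin I and condensin II, which are built on the same pair of SMC proteins, SMC2 and SMC4, and differ in their other subunits. NCAPH and NCAPH2 are the kleisins that close the ring, and NCAPD2 and NCAPG, or NCAPD3 and NCAPG2, are the HEAT-repeat proteins bound to each kleisin. Condensin II is in the nucleus through interphase and begins to act in prophase, whereas condensin I is largely cytoplasmic until the nuclear envelope breaks down and then acts on the chromosome arms.

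RNA-seq of polyadenylated RNA was performed on SaOS-2 cells, a human osteosarcoma line null for RB and p53, with a stable doxycycline-inducible p21 vector. The 3 p21 OFF libraries came from untreated cells and the 3 p21 ON libraries from cells given 1 μg/ml doxycycline for 24 h, and cells of both groups carried the vector. No library of doxycycline-treated cells lacking the vector was analysed here, so effects of doxycycline and of p21 cannot be told apart. The study calls its replicates biological, but neither it nor the labels say whether the libraries came from separate cultures, so p-values measure the spread between these libraries, which may be technical. Reads assigned to genes numbered 12795490, 20914151 and 21975045 in p21 OFF replicates 1 to 3, and 13440402, 12918390 and 16630552 in p21 ON replicates 1 to 3. Among replicates, p21 OFF replicate 1 stood apart, with a chi-square per gene of 8.482 and 9.277 against the other p21 OFF libraries, beside 2.712 to 3.974 for the other pairs of replicates. Without it 7 subunits were still lower and 0 higher, and the difference between condensin I and condensin II in mean log2 fold change was -0.95. A subunit was covered by at least 438 reads, for NCAPG in p21 ON replicate 2, and at most 18166 reads, for SMC4 in p21 OFF replicate 3. CDKN1A, which encodes p21, had 1257, 1187 and 1355 normalized counts in p21 OFF replicates 1 to 3 and 40470, 43863 and 46739 in p21 ON replicates 1 to 3, a log2 fold change of 5.11 (SE 0.0669, adjusted p = 1.12e-19, limma). Of 8 osteoblast markers most were abundant in both groups, including ALPL with 36026 ± 1143 (SD, n = 3) and 37302 ± 1511 (SD, n = 3) normalized counts in p21 OFF and p21 ON cells and RUNX2 with 3412 ± 362 and 3403 ± 170, whereas BGLAP was listed at 0 in every library and IBSP was weak, at 129.5 ± 8.66 and 99.02 ± 3.2 (log2 fold change -0.38, adjusted p = 0.0264, limma). The IBSP call was lost under several alternatives, among them DESeq2 (adjusted p = 0.0981) and no filter on low values (limma, adjusted p = 0.0542).

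The 3 subunits particular to condensin I, NCAPH, NCAPG and NCAPD2, were all significantly lower in p21 ON cells, to 0.353-, 0.424- and 0.553-fold of the p21 OFF level. SMC4 fell to 0.497-fold and SMC2 to 0.713-fold. The condensin II subunits had smaller changes, with NCAPG2 at 0.733-fold, NCAPD3 at 0.851-fold and NCAPH2 at 0.939-fold, and the change of NCAPH2 did not pass the test. In all, 7 of the 8 subunits were lower and 0 were higher by limma with Benjamini-Hochberg adjustment over all genes tested, at an adjusted p-value under 0.05. Of all genes tested, 12.7% were lower and 10.5% were higher by the same rule (1681 and 1393 genes). These numbers were 887 and 695 without p21 ON replicate 1 and 1077 and 739 without p21 ON replicate 3, while 6 subunits were lower in each case. With scaling by library size alone the balance over all genes turned to 1194 lower and 2034 higher, while the count of subunits stayed at 7 lower and 0 higher. Every p21 ON library lay below every p21 OFF library for 7 of the 8 subunits, which held for 21.3% of all genes tested, while the reverse held for 0 subunits and for 19.1% of all genes. The median log2 fold change of the 8 subunits was -0.672, beside 0.00565 for all genes tested. edgeR and DESeq2 on the recovered reads each called the same number, 7 lower and 0 higher. RNA was taken from whole cultures, so fewer cells in G2 or mitosis and less subunit mRNA per cell cannot be told apart.

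**Figure D1:**
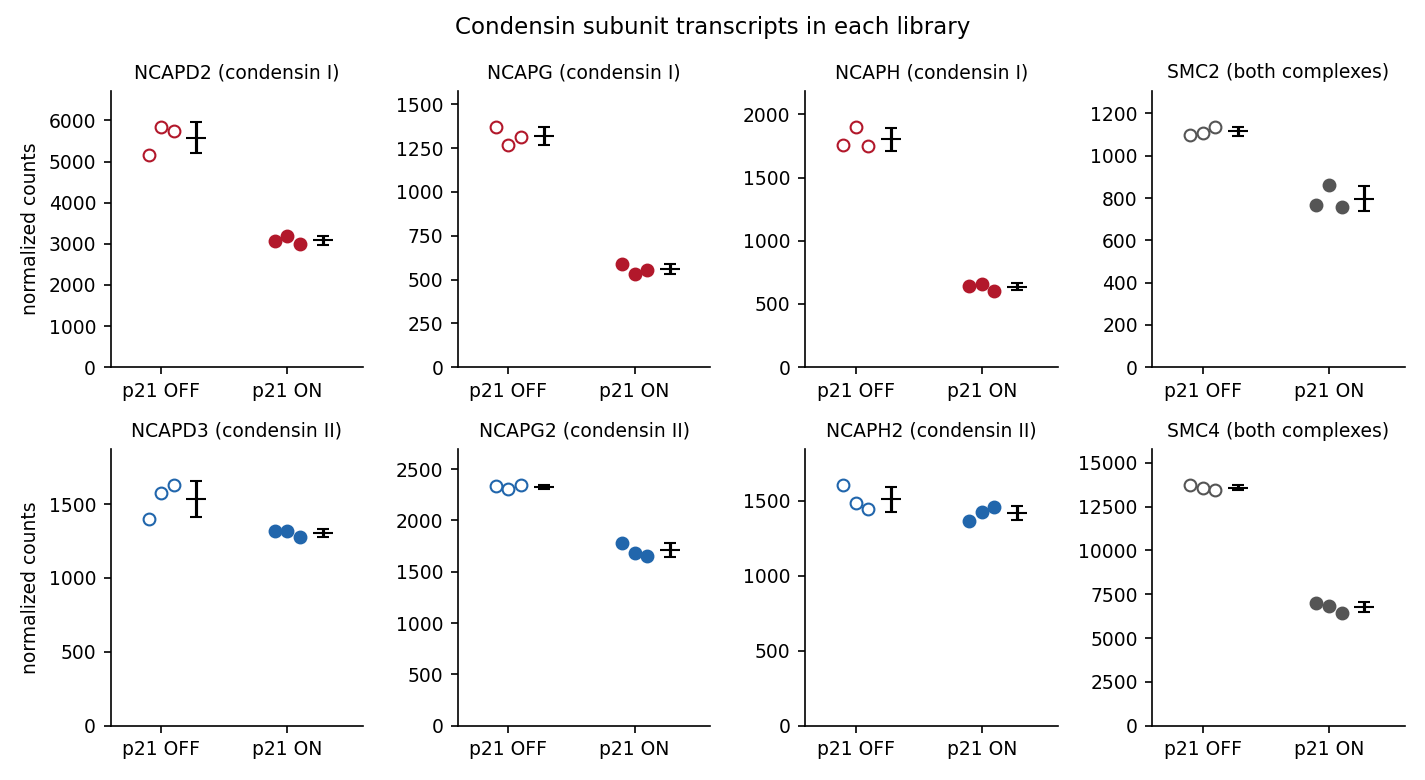
Normalized counts (vertical axis, from 0) of each condensin subunit in the 3 p21 OFF libraries (open points) and the 3 p21 ON libraries (filled points), with the mean and SD beside each group. The groups are separated for 7 subunits and overlap for NCAPH2.

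NCAPH, the condensin I kleisin, fell furthest of the 8 subunits. It had 1757, 1904 and 1747 normalized counts in p21 OFF replicates 1 to 3 and 642.6, 660.4 and 605.3 in p21 ON replicates 1 to 3. The groups did not overlap, and the log2 fold change was -1.50 (SE 0.0669, adjusted p = 2.53e-11, limma). Only 17 of the 13255 genes tested had a lower log2 fold change. NCAPG, a HEAT-repeat subunit, had 1373, 1269 and 1311 normalized counts in p21 OFF replicates 1 to 3 and 587.9, 533.7 and 554.9 in p21 ON replicates 1 to 3. Every p21 ON library lay below every p21 OFF library, with a log2 fold change of -1.24 (SE 0.0686, adjusted p = 2.14e-10, limma). The other HEAT-repeat subunit, NCAPD2, was more abundant, with 5162, 5850 and 5740 normalized counts in p21 OFF replicates 1 to 3 and 3070, 3190 and 2984 in p21 ON replicates 1 to 3. Its p21 OFF replicate 1 was the lowest of its group and still lay above all p21 ON libraries. The log2 fold change of NCAPD2 was -0.86 (SE 0.0623, adjusted p = 8.37e-09, limma).

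SMC4 and SMC2, the ATPase subunits that both complexes contain, both fell. SMC4 had 13734, 13593 and 13428 normalized counts in p21 OFF replicates 1 to 3 and 7007, 6806 and 6437 in p21 ON replicates 1 to 3. The groups were well apart, with SDs of 154 and 289 (n = 3 each) around means of 13585 and 6750, and the log2 fold change was -1.01 (SE 0.0576, adjusted p = 2.99e-10, limma). SMC2 had 1098, 1108 and 1138 normalized counts in p21 OFF replicates 1 to 3 and 768.3, 863.9 and 755.4 in p21 ON replicates 1 to 3. The p21 ON replicate 2 was the highest of its group, and it was still lower than each p21 OFF library. The log2 fold change of SMC2 was -0.49 (SE 0.0696, adjusted p = 6.95e-05, limma). The ratio of SMC2 to SMC4 normalized counts was 0.0821 in p21 OFF and 0.118 in p21 ON cells, a log2 difference of 0.52 (SE 0.0657). The ratios of the groups did not overlap, and the exact two-sided permutation test gave p = 0.1, the smallest value that 3 libraries against 3 allow (adjusted p = 0.1 over 8 pairs of genes).

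NCAPG2, the condensin II counterpart of NCAPG, had 2331, 2308 and 2344 normalized counts in p21 OFF replicates 1 to 3 and 1783, 1685 and 1654 in p21 ON replicates 1 to 3. This was the clearest change within condensin II, with no overlap and a log2 fold change of -0.45 (SE 0.0592, adjusted p = 2.97e-05, limma). NCAPD3, the HEAT-repeat partner of NCAPG2, had 1400, 1577 and 1628 normalized counts in p21 OFF replicates 1 to 3 and 1319, 1316 and 1274 in p21 ON replicates 1 to 3. The groups did not overlap, but p21 OFF replicate 1 lay close to the p21 ON libraries. The log2 fold change of NCAPD3 was -0.23 (SE 0.0675, adjusted p = 0.0185, limma), and it no longer passed the test without p21 OFF replicate 2 or 3 (adjusted p = 0.0689 and 0.0793, limma) or without p21 ON replicate 1 or 3 (adjusted p = 0.064 and 0.0788, limma). NCAPH2, the condensin II kleisin, had 1606, 1486 and 1445 normalized counts in p21 OFF replicates 1 to 3 and 1369, 1426 and 1462 in p21 ON replicates 1 to 3. The highest p21 ON library exceeded the lowest p21 OFF library, and the log2 fold change of -0.09 (SE 0.0642, adjusted p = 0.321, limma) did not pass the test.

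The subunits are encoded on 8 different chromosomes. In GRCh37, the condensin I genes lie at chr2:97001504-97042829 (NCAPH), chr4:17812602-17846488 (NCAPG) and chr12:6602522-6641121 (NCAPD2), all on the plus strand. NCAPH2 lies at chr22:50946653-50963209 on the plus strand, and NCAPG2 at chr7:158423861-158497495 and NCAPD3 at chr11:134020008-134095398 lie on the minus strand. SMC2 at chr9:106856541-106903700 and SMC4 at chr3:160117062-160152742 are on the plus strand. Of the 8 genes, 5 have a neighbour on the opposite strand whose start is within 1000 bases of theirs, and in these pairs only MRPL51, beside NCAPD2, also passed the test. MRPL51, a mitochondrial ribosomal protein gene with a start 840 bases from that of NCAPD2 and 383 shared exonic bases, had 2173 ± 199 normalized counts in p21 OFF and 1721 ± 152 in p21 ON cells (SD, n = 3 each; log2 fold change -0.34, adjusted p = 0.00437, limma). The 4 other neighbours, DCAF16 (NCAPG), VPS26B (NCAPD3), LMF2 (NCAPH2) and IFT80 (SMC4), had log2 fold changes of 0.07, 0.02, 0.18 and 0.05, none past the threshold. LCORL, whose exons share 1634 bases with those of NCAPG on the opposite strand, was lower in p21 ON cells by the test, with a log2 fold change of -0.28 (adjusted p = 0.0256, limma), a call lost with scaling by library size (adjusted p = 0.0577) and without p21 OFF replicate 3 and, singly, without p21 ON replicates 2 and 3 (limma, adjusted p = 0.0663, 0.0535 and 0.133). TRIM59 shares 1553 exonic bases with SMC4, JAM3 shares 1889 with NCAPD3 and SCO2 shares 857 with NCAPH2, all on the opposite strand. TRIM59 had a log2 fold change of 0.11 and JAM3, with 22.1 ± 3.36 normalized counts in p21 OFF cells (SD, n = 3), one of -0.46, neither past the threshold, and SCO2 was below the filter on low values. The strand setting of the read counting is not given in the sources used here, and its part in the values of overlapping genes was not tested.

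Promoter windows of 300 bases, 250 before and 50 after the annotated start, were available for 7 of the 8 genes from RefSeq (GRCh38.p14). NCAPH2 had no window in the table used. Both members of the HEAT-repeat pairs are shown, because in each pair the condensin I gene had a lower log2 fold change than its condensin II counterpart, together with NCAPH, the subunit that fell furthest. Capitals mark letters of a CHR element (TTTGAA or TTCGAA, the element through which the MuvB core of the DREAM and MMB complexes contacts many late cell cycle promoters), of a CCAAT box (CCAAT, the element bound by NF-Y), or of an E2F site (TTTGGCGC, TTTCCCGC, TTTCGCGC or TTTGCCGC), each searched on both strands. All sequences read 5′ to 3′ along the strand of the gene.
NCAPD2, chr12:6493852-6494151, plus strand: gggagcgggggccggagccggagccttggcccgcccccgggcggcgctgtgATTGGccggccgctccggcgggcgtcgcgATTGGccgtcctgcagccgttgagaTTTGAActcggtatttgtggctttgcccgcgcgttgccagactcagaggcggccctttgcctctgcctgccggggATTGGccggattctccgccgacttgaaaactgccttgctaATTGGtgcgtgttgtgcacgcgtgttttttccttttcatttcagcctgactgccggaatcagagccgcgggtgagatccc
NCAPD3, chr11:134223918-134224217, minus strand: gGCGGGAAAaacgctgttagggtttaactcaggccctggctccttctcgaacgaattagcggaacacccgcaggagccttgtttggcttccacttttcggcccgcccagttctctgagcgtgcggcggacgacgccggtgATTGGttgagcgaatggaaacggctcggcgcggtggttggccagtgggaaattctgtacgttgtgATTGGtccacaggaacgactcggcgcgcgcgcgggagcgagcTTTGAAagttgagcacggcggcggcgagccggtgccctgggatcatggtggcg
NCAPG, chr4:17810729-17811028, plus strand: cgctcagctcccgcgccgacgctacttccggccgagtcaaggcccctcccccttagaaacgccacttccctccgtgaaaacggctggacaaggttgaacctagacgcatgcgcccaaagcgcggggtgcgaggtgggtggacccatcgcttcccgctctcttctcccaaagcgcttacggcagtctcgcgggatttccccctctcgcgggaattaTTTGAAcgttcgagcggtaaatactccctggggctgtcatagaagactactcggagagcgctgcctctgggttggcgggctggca
NCAPG2, chr7:158704755-158705054, minus strand: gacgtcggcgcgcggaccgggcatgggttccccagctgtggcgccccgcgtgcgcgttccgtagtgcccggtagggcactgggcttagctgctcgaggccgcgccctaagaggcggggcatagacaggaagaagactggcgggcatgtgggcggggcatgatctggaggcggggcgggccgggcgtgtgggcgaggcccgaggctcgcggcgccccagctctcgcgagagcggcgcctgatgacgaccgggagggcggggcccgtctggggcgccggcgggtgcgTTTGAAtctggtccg
NCAPH, chr2:96335516-96335815, plus strand: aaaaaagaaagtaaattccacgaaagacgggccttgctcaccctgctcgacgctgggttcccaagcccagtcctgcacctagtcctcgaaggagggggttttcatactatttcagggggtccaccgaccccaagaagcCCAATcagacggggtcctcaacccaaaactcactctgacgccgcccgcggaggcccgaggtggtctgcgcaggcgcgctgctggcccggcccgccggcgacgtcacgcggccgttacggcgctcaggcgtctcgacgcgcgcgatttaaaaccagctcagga

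CHR letters were found in 6 of the 10 windows, from genes of both condensin I and condensin II, CCAAT letters in 3 of the 10 and E2F letters in 1 of the 10. In the NCAPD2 window, TTTGAA began 145 bases before the start and 4 CCAAT boxes were read on the other strand as ATTGG. In the NCAPD3 window, TTTGAA began 3 bases before the start, 2 CCAAT boxes were read on the other strand, and E2F letters on the other strand began 249 bases before the start. In NCAPG, TTTGAA began 35 bases before the start, and in NCAPG2 it began 35 bases after it. NCAPH, which fell furthest, held a CCAAT box 112 bases before the start and neither TTTGAA nor TTCGAA on either strand. Other forms of the CHR element were not searched. SMC4, SMC2 and NCAPD3 each had 2 windows in the table. In the upstream windows of SMC4 and SMC2, CHR letters on the other strand began 75 and 3 bases before the start, and their downstream windows and the upstream window of NCAPD3, which is not shown, held none of the letters searched. No matches overlapped one another. Of 34796 distinct promoter windows of this length in the table, 16.4% held CHR letters, 34.6% held CCAAT letters and 3.3% held E2F letters. These are matches of letters and were not tested as binding sites.

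Condensin I was compared with condensin II within each library. On average over their 3 genes, condensin I subunits had a log2 fold change of -1.20 and condensin II subunits -0.26. The mean log2 level of condensin I minus that of condensin II was 0.42, 0.46 and 0.42 in p21 OFF replicates 1 to 3 and -0.49, -0.50 and -0.54 in p21 ON replicates 1 to 3. The groups were far apart, with a difference of -0.94 (SE 0.0217), which is given as a description because the contrast was chosen with earlier results known. The ratio of NCAPH to NCAPH2 normalized counts was 1.19 in p21 OFF and 0.449 in p21 ON cells, a log2 difference of -1.41 (SE 0.0881). For NCAPG to NCAPG2 it was 0.566 and 0.328, a log2 difference of -0.79 (SE 0.0385), and for NCAPD2 to NCAPD3 it was 3.64 and 2.36, a log2 difference of -0.62 (SE 0.0295). In all 3 pairs each p21 ON library lay below each p21 OFF library, and the exact two-sided permutation test gave p = 0.1, the smallest possible here (adjusted p = 0.1 over 8 pairs). The log2 difference was largest for the kleisins and smallest for NCAPD2 and NCAPD3, and differences among these pairs were not tested. Counts in these means and ratios were not divided by length, so their signs do not rank the levels of different genes. Only their change between the groups is compared. Per kilobase of exon, NCAPH lay below NCAPH2 in p21 OFF cells too (275 ± 13.5 and 339 ± 18.8, SD, n = 3 each).

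**Figure D2:**
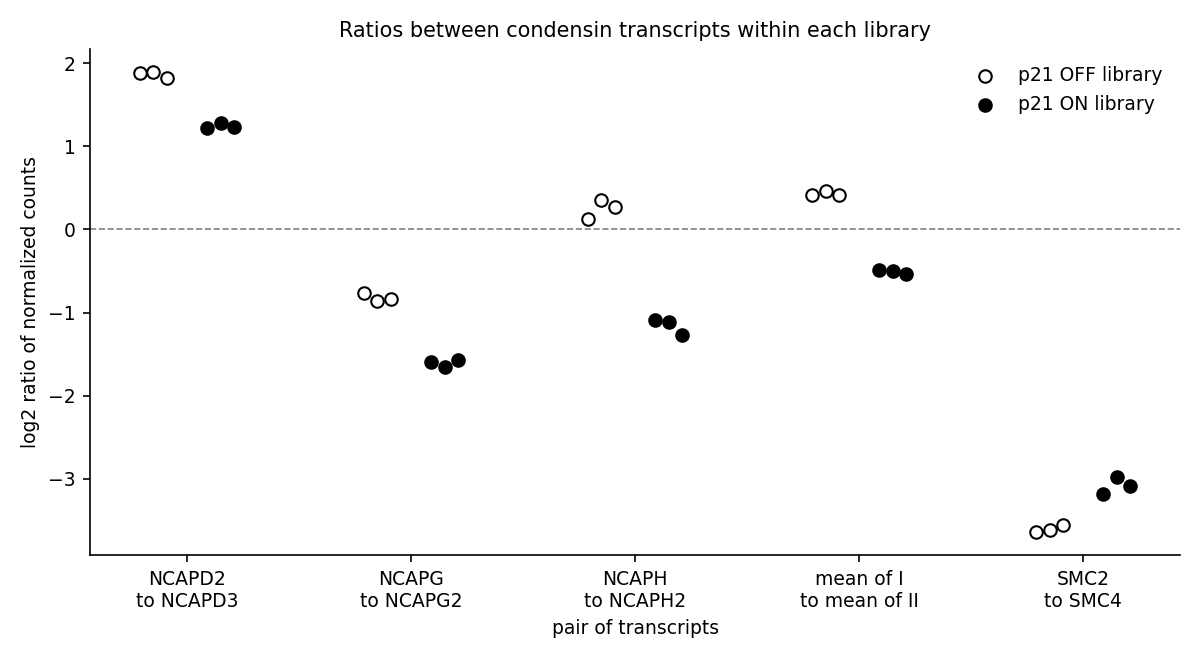
Log2 ratio of normalized counts (vertical axis) of condensin I to condensin II counterparts, of the mean of the 3 condensin I to the mean of the 3 condensin II subunits, and of SMC2 to SMC4, in each p21 OFF (open) and p21 ON (filled) library. The kleisin ratio is lower and the SMC2 to SMC4 ratio is higher in the p21 ON libraries. Counts were not divided by length, so the side of 0 on which a ratio lies does not rank the levels of its genes.

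In order of log2 fold change the subunits ran from NCAPH through NCAPG, SMC4, NCAPD2, SMC2, NCAPG2 and NCAPD3 to NCAPH2. Neighbours in this order were compared by the log2 ratio of their counts in each library. The pairs were formed from the observed fold changes, so the sign of each difference was fixed by that choice. SMC2 and NCAPG2 differed by -0.04 (SE 0.0748, exact permutation p = 0.7, adjusted p = 0.7 over 7 neighbours) and NCAPD3 and NCAPH2 by -0.14 (SE 0.119, exact permutation p = 0.3, adjusted p = 0.35), with overlapping ratios in both cases. The order within these pairs is within the spread between libraries. The other 5 neighbours had ratios that did not overlap between the groups, with an exact permutation p = 0.1 (adjusted p = 0.14). This is the smallest p possible here, so the test could call none of these differences. SMC2 thus lay next to NCAPG2 in the order, whereas SMC4 lay between NCAPG and NCAPD2.

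Levels of different subunits were compared as normalized counts per kilobase of exon, using the union of annotated exons. SMC4 had the highest level, 1664 ± 18.8 per kilobase in p21 OFF cells and 827 ± 35.4 in p21 ON cells (SD, n = 3 each). NCAPD2 followed with 863 ± 57.1 and 476 ± 16. In p21 OFF cells NCAPH2 (339 ± 18.8) and NCAPG2 (328 ± 2.54) were next and overlapped each other, as did NCAPH (275 ± 13.5) and NCAPG (272 ± 10.7). SMC2 had 172 ± 3.19 per kilobase, and SMC4 was 9.67-fold as abundant as its partner SMC2 in p21 OFF cells and 6.72-fold in p21 ON cells. NCAPD3 was lowest at 82.1 ± 6.4 and 69.7 ± 1.34. In p21 ON cells NCAPG at 115 ± 5.64 and NCAPH at 97.2 ± 4.3 had dropped below SMC2 at 123 ± 9.16, although the ranges of NCAPG and SMC2 overlapped, while NCAPH2 at 318 ± 10.5 and NCAPG2 at 240 ± 9.49 kept the third and the fourth places. The mean level of the 3 condensin I subunits was 1.88 times that of the 3 condensin II subunits in p21 OFF cells and 1.1 times in p21 ON cells. Of the condensin I subunits only NCAPD2 lay above its counterpart, NCAPD3. NCAPG and NCAPH lay below NCAPG2 and NCAPH2 in both groups. The ratios of the means also depend on the length used. The annotated exons of NCAPD3 cover 18698 bases and its canonical transcript 7369, and those of NCAPG2 cover 7104 and 4049. The lengths of the other subunits also differ between these definitions. With the longest transcripts, the ratio of condensin I to condensin II was 1.67 and 0.991, and the lowest subunit was NCAPD3 in p21 OFF and NCAPH in p21 ON cells. With canonical transcripts, an alternative chosen after the data were seen, the mean of condensin I was 1.41 times that of condensin II in p21 OFF cells and 0.846 times in p21 ON cells, SMC4 was 14.1-fold and 9.84-fold as abundant as SMC2, and SMC2 was the lowest subunit in p21 OFF cells and NCAPH in p21 ON cells.

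**Figure D3:**
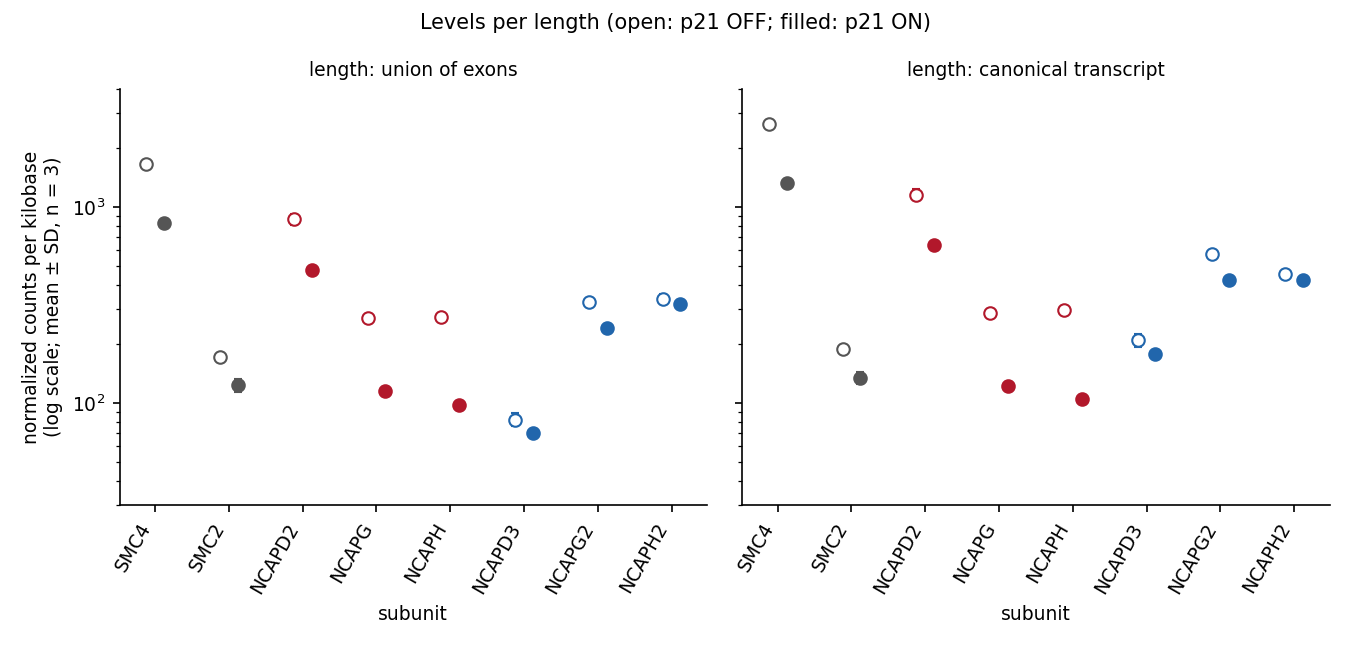
Mean normalized counts per kilobase (log axis; bars, SD over 3 libraries, mostly smaller than the points) of each subunit in p21 OFF (open) and p21 ON (filled) cells, with length taken as the union of exons or as the canonical transcript. SMC4 and NCAPD2 are the highest with either length, and the place of NCAPD3 moves with the length used.

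The subunits were then placed among genes of the cell cycle lists used by the study, which hold genes with peak expression in G1/S or in G2/M in other cell cycle datasets. SMC4, NCAPD2, NCAPG and NCAPH are on the low-stringency G2/M list, NCAPG2 and NCAPH2 are on the low-stringency G1/S list, and SMC2 and NCAPD3 are on neither. Of 417 G2/M genes tested, 247 were lower and 5 were higher in p21 ON cells, with a median log2 fold change of -0.31, beside 12.7% lower and 10.5% higher of all genes tested. The number higher was 0 to 12 under the alternatives. NCAPH fell further than most of them, with 12 listed genes having a lower log2 fold change, against 65 for NCAPG, 98 for SMC4 and 116 for NCAPD2. Of 537 G1/S genes tested, 117 were lower and 88 were higher, with a median log2 fold change of 0.00222, beside 12.7% lower and 10.5% higher of all genes tested. With scaling by library size alone the balance of this list turned to 102 lower and 116 higher. NCAPG2 had a lower log2 fold change than all but 58 of them, whereas 189 lay below NCAPH2.

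**Figure D4:**
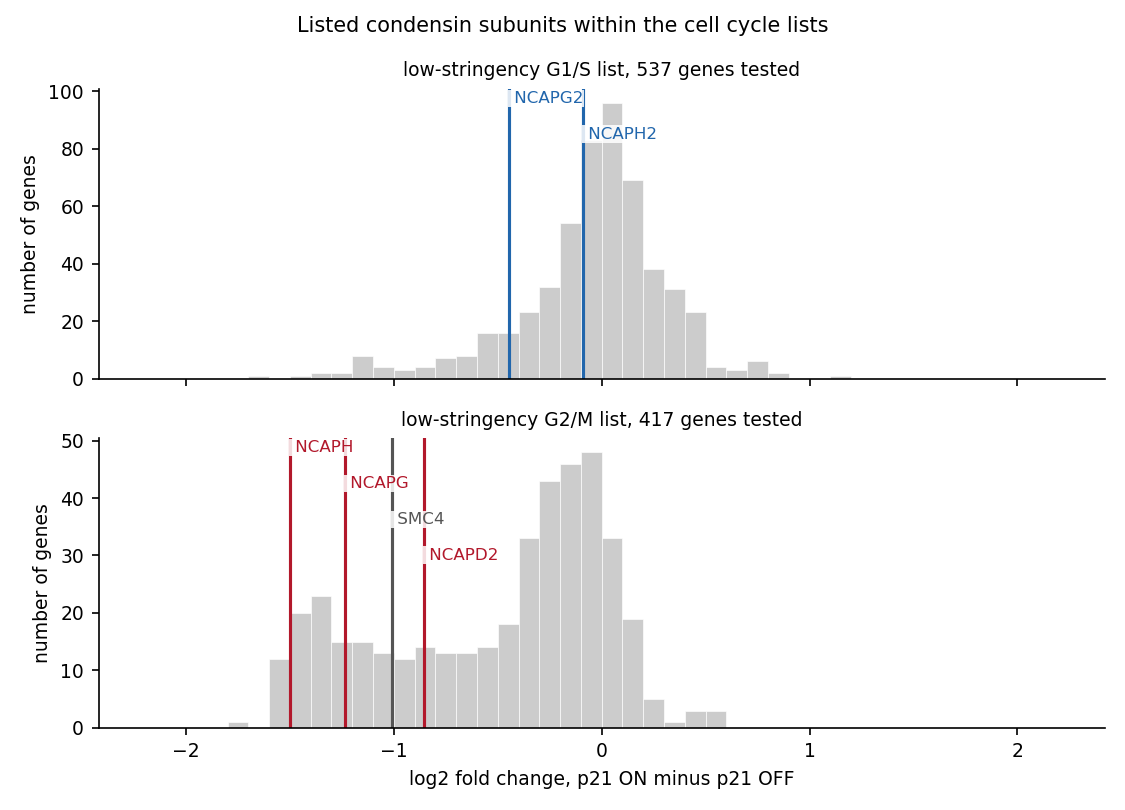
Number of genes (vertical axis) by log2 fold change, p21 ON minus p21 OFF, in the low-stringency G1/S list (537 genes tested) and the low-stringency G2/M list (417 genes tested), with lines at the condensin subunits that each list holds. NCAPH, NCAPG, SMC4 and NCAPD2 lie in the lower part of the G2/M list. In the G1/S list, 58 genes have a lower log2 fold change than NCAPG2 and 189 a lower one than NCAPH2.

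Kinases and chromatin proteins known to act on condensin were examined next. Of 11 genes, 6 were lower and 0 were higher by limma (at an unadjusted p under 0.05, 7 and 1; by edgeR 6 and 0, and by DESeq2 5 and 0), with a median log2 fold change of -0.20. Of all genes tested, 12.7% were lower and 10.5% higher. The mitotic kinase genes and CCNB1 changed most. AURKB, the Aurora kinase of the chromosomal passenger complex, had 925.8 ± 71.8 normalized counts in p21 OFF and 276.3 ± 23.1 in p21 ON cells (SD, n = 3 each; log2 fold change -1.74, SE 0.085, adjusted p = 5.57e-11, limma), the lowest log2 fold change of all 13255 genes tested. TTK, PLK1, CCNB1 and CDK1, which encode the checkpoint kinase MPS1, polo-like kinase 1, and cyclin B1 with its kinase, had log2 fold changes of -1.52, -1.44, -1.39 and -1.38. These were near that of NCAPH. SETD8, the histone H4 lysine 20 methyltransferase gene now named KMT5A, was lower by less, with a log2 fold change of -0.20 (adjusted p = 0.041, limma). This call was lost with DESeq2 (adjusted p = 0.0666), with scaling by library size (limma, adjusted p = 0.108), with the replicate block (limma, adjusted p = 0.0822), with the length trend taken out (limma, adjusted p = 0.0517) and without any 1 library except p21 ON replicate 2 (limma, adjusted p = 0.0534 to 0.154). The other 5 did not pass the test. MCPH1, an inhibitor of condensin II in interphase, had 246.3 ± 3.5 normalized counts in p21 OFF and 234.2 ± 3.63 in p21 ON cells (SD, n = 3 each; log2 fold change -0.07, adjusted p = 0.584, limma). CSNK2A1, the catalytic subunit gene of casein kinase 2, was at -0.17 on the log2 scale (adjusted p = 0.0508, limma), and AKAP8 and PHF8, which encode chromatin proteins linked to condensin loading, had log2 fold changes of -0.11 and -0.06. RB1 transcripts had 554.7 ± 66.8 and 653.8 ± 39.7 normalized counts (SD, n = 3 each; log2 fold change 0.24, adjusted p = 0.0516, limma) in these cells described as null for RB.

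Of 6 genes for proteins that shape chromosomes together with condensin, 5 were lower and 0 higher by limma, beside 12.7% lower and 10.5% higher of all genes tested, and the median log2 fold change was -1.02. By edgeR and by DESeq2 the count was also 5 and 0. KIF4A, a chromokinesin that binds condensin I, had the largest change, from 1087 ± 62.3 to 409.5 ± 25.6 normalized counts (SD, n = 3 each; log2 fold change -1.41, adjusted p = 1.54e-10, limma). TOP2A, the DNA topoisomerase of mitotic chromosomes, had a log2 fold change of -1.34, KIF22 -1.14, MKI67 -0.90 and NUSAP1 -0.84. TOP2B, the topoisomerase that is also present in non-dividing cells, had 3301 ± 144 and 3212 ± 91.8 normalized counts (SD, n = 3 each; log2 fold change -0.04, adjusted p = 0.668, limma). The difference between TOP2A and TOP2B was not tested.

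**Figure D5:**
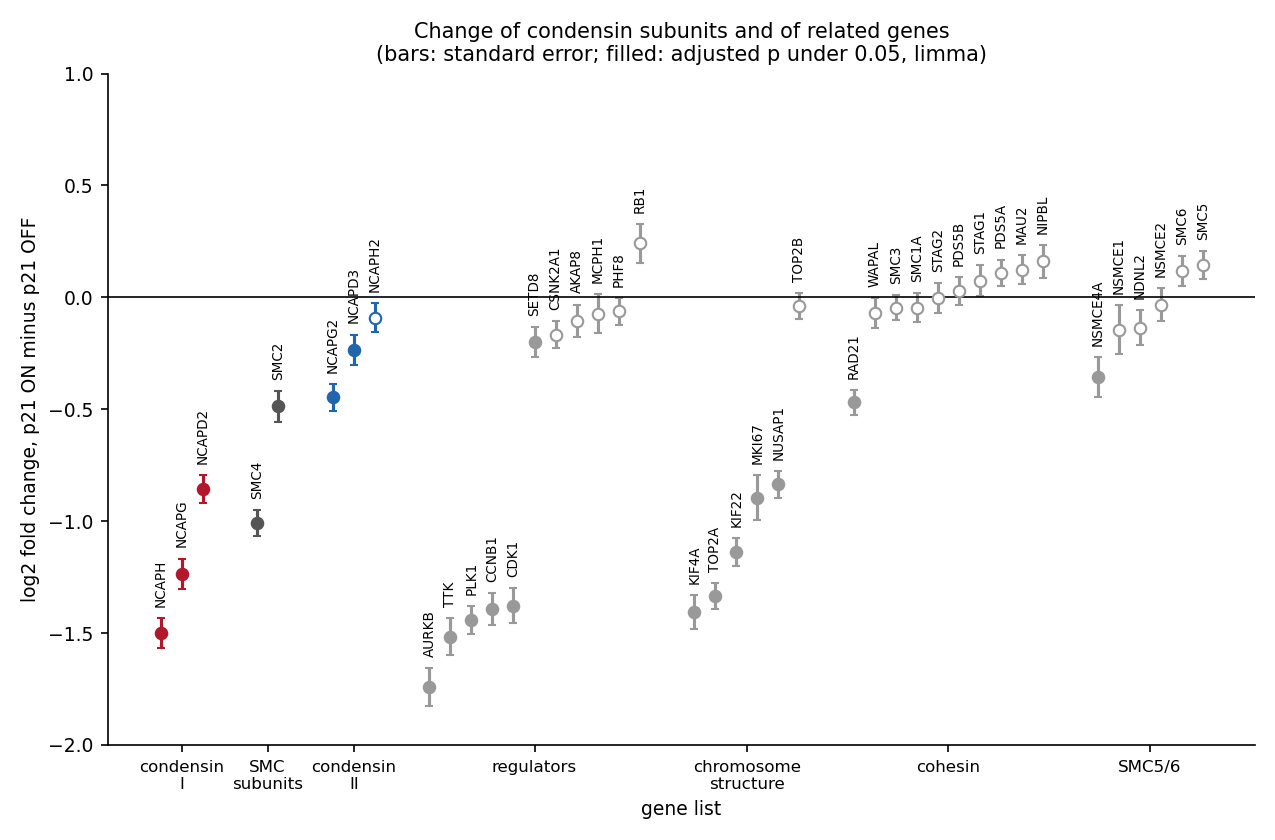
Log2 fold change, p21 ON minus p21 OFF (vertical axis; bars, SE), of the condensin subunits and of genes in the lists of condensin regulators, chromosome structure proteins, cohesin and SMC5/6. Filled points passed an adjusted p under 0.05 with limma; condensin I, SMC4, the mitotic kinases and CCNB1 lie below most cohesin and SMC5/6 genes.

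The other SMC complexes of the cell were compared with condensin. Among 10 genes of the cohesin ring and its loading and release, which hold sister chromatids together, 1 was lower and 0 were higher by limma (at an unadjusted p under 0.05, 1 and 1; by edgeR and by DESeq2, 1 and 0), with a median log2 fold change of 0.0117. The 10% called lower was near the 12.7% of all genes tested. The gene that changed was RAD21, the mitotic cohesin kleisin, with 9934 ± 126 normalized counts in p21 OFF and 7174 ± 217 in p21 ON cells (SD, n = 3 each; log2 fold change -0.47, adjusted p = 8.68e-06, limma). SMC1A and SMC3, the SMC proteins of cohesin, each had a log2 fold change of -0.05, and STAG2 had the smallest, -0.0035. Among 6 genes of the SMC5/6 complex, which acts in DNA repair, NSMCE4A was lower (log2 fold change -0.36, adjusted p = 0.00776, limma) and the other 5, SMC5, SMC6, NSMCE1, NSMCE2 and NDNL2 (now named NSMCE3), were not called, so that 16.7% of the list was lower, beside 12.7% of all genes tested. At an unadjusted p under 0.05 the SMC5/6 count was 1 lower and 1 higher, and edgeR and DESeq2 each gave 1 and 0. The ratio of SMC4 to SMC1A normalized counts was 1.73 in p21 OFF and 0.888 in p21 ON cells, a log2 difference of -0.96 (SE 0.0891), and that of SMC2 to SMC3 was 0.401 and 0.295, a log2 difference of -0.44 (SE 0.0667). Relative to RAD21 the condensin kleisins differed in sign, with a log2 difference of -1.03 (SE 0.0527) for NCAPH and 0.38 (SE 0.0631) for NCAPH2. In each of these 4 ratios, which were chosen after the data were seen, the groups did not overlap, and the exact two-sided permutation test gave p = 0.1, the smallest possible (adjusted p = 0.1 over 8 pairs).

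The genes whose profiles over the 6 libraries were most like the mean of the condensin I subunits, among tested genes with a mean of at least 100 normalized counts, were PRC1, TPX2, TACC3, PRR11 and TROAP. Their centred log2 levels differed from those of condensin I by a root mean square of 0.0341 to 0.052, and their log2 fold changes were -1.18, -1.16, -1.25, -1.16 and -1.21. PRC1 encodes a protein that bundles microtubules of the central spindle, TPX2 an activator of Aurora A, and TACC3 a protein of spindle microtubules. The genes most like the mean of the condensin II subunits were RBM23, UBE2G1, USP10, HNRNPH3 and MRE11A, at a root mean square of 0.00751 to 0.0209 and with log2 fold changes of -0.25, -0.28, -0.26, -0.25 and -0.27. RBM23 and HNRNPH3 encode RNA-binding proteins, UBE2G1 a ubiquitin-conjugating enzyme, USP10 a deubiquitinase and MRE11A the nuclease of the MRN complex. Both sets of genes were picked by the likeness of their profiles in these libraries. Log2 fold changes near the means of the complexes were therefore fixed by the choice.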

How the data were processed

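Libraries were made by the authors from stranded mRNA and sequenced in one lane with single-end reads. The authors used STAR for mapping to hg19, HTSeq for counting per gene name and DESeq2 size factors for normalization; versions are not given in the sources used here. The deposited table holds these normalized counts as a signal per gene and library, and 0 value columns had no sample. Dividing by the smallest step of a library returned whole reads for 100% of its values (within 0.01 of a read). Pairs of replicates differed by more than sampling noise (chi-square per gene 8.482 and 9.277 for pairs with p21 OFF replicate 1, 2.712 to 3.974 for the others).

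Differential expression was tested with limma 3.58.1 (lmFit, eBayes with trend; R 4.3.3) on log2(normalized count + 1), without covariates, over the 13255 genes averaging 10 normalized counts or more. Benjamini-Hochberg adjusted p-values under 0.05 were called. Fold changes on this scale understate changes of weakly expressed genes. edgeR 4.0.16 (quasi-likelihood) and DESeq2 1.42.0 on recovered reads called 1647 and 1422 genes lower and 1401 and 1118 higher, beside 1681 and 1393 by limma. Other alternatives were scaling, pseudocounts of 0.1 and 10, filters, thresholds, length and GC trends, a replicate block and leaving out each library. The script was tested on simulated data.

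The genes named were CDKN1A, the 8 subunits, the members of the 4 lists of related genes (1 planned member is not reported here), the 5 genes nearest to the mean profile of each complex, and genes with a start within 1000 bases on the opposite strand or with overlapping exons. The members and lists were chosen with earlier results of these data known, and the lists support nothing beyond their counts. Older symbols were matched through RefSeq synonyms. The table was matched to GENCODE release 44 on GRCh37 for 18915 rows by symbol and 2113 by an older symbol, and 2200 were not matched. The low-stringency lists came from a copy of the study's table and held 572 G1/S and 432 G2/M genes, slightly fewer than the study states. Of 8 osteoblast markers 7 were tested and 1 (14.3%, beside 12.7% of all genes tested) was lower, IBSP (129.5 to 99.02 normalized counts). Of 11 markers of other cell types 5 were tested and 1 was higher (10.5% of all genes tested were higher), VWF (53.64 to 77.19), with KRT18 the most abundant and MS4A1 at 0. The 11 summed to 2308 to 2830 normalized counts in p21 OFF and 2672 to 2980 in p21 ON libraries, and their part in the results was not tested. The IBSP and VWF calls were each lost with DESeq2, without the filter, with the length trend taken out and without any of 4 single libraries.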

Additional observations from a re-analysis of the deposited data

How the results depend on the processing

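The log2 fold change of every subunit kept its sign under all alternatives run. With a log2 fold change of at least 1 also required, 3 subunits were lower, as were 152 of all genes (48 higher), 3 chromosome structure genes, 0 cohesin and 0 SMC5/6 genes, 18 low-stringency G1/S genes (1 higher) and 99 low-stringency G2/M genes (0 higher). At an adjusted p under 0.01 the numbers were 882 lower and 616 higher for all genes, 54 higher for G1/S and 2 higher for G2/M. Scaling by library size, which moved the median log2 fold change of all genes to 0.0495, turned the balance of all genes to 1194 lower and 2034 higher and that of the G1/S list to 102 and 116, and gave 1 higher gene in each of the regulator, cohesin and SMC5/6 lists and 12 higher in G2/M. Taking out the GC trend gave 1 higher regulator, 1 higher SMC5/6 gene and 8 higher G2/M genes, and taking out the length trend gave 1 higher regulator. The difference between condensin I and condensin II was -0.91 with the length trend taken out and -1.003 with medians in place of means. Per kilobase, the ratio of mean condensin I to mean condensin II in p21 ON cells was 1.1 with the union of exons, 0.991 with the longest and 0.846 with the canonical transcript.

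Leaving out one library gave 887 to 1660 genes lower and 695 to 1486 higher, with the fewest without p21 ON replicate 1 and next without p21 ON replicate 3 (1077 and 739). The subunits called lower numbered 6 to 7, the change being NCAPD3 each time. The regulators called lower numbered 5 to 6, and 7 with a pseudocount of 10, with at least 10 reads in every library or with the GC trend taken out, where CSNK2A1 was also called. Without p21 OFF replicate 1, and with the length trend taken out, 6 regulators were lower although the SETD8 call was lost. These 6 were therefore not the same genes as in the main fit. Higher genes numbered 0 to 1 in the regulator, cohesin and SMC5/6 lists, and 2 to 10 in the G2/M list (without p21 ON replicate 1 and p21 OFF replicate 3).

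The replicate numbers gave no sign of pairing the libraries. Deviations from the group means of libraries with the same number correlated at -0.057, -0.025 and -0.048. In no such pair was each library the best match of the other. With the replicate block 1513 genes were lower and 1407 higher, and 7 subunits were lower, NCAPD3 with an adjusted p of 0.0308 (limma). Among the regulators the block ended the call of SETD8 (adjusted p = 0.0822, limma), which left 5 lower.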
